A study of Rattus norvegicus with 6 samples.

Results

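Solute carriers are membrane proteins that move amino acids, sugars, metals, ions, nucleotides and vitamins across the plasma membrane and the membranes of organelles, and their genes carry symbols that start with Slc and a family number. The genes described here were selected on such a symbol and on a mean of at least 1 FPKM (fragments scaled to the length of the gene and to the total of the library) over all 6 libraries, apart from 11 carriers of glucose, lactate, iron and amino acids that the selection leaves out. Of 348 Slc genes in a table of 30560 genes, 173 reached that mean, 10 of them were among those left out, and 163 remained. The selection used the mean over both groups, so the level of these genes is a description, and 3 of them had a mean below 1 FPKM in NC (Slc25a45 and Slc5a3) or with the antagomiR (Slc46a3). Of the 175 Slc genes below the minimum, 45 are listed at 0 in all libraries. The symbols of 4 of the 163 name proteins that are not carriers: Slc9a3r1 and Slc9a3r2, scaffolds that bind carriers, Slc4a1ap, a protein first found as a partner of an anion exchanger, and Slc7a6os, a neighbour of Slc7a6 on the opposite strand. The other 159 were sorted into 12 classes by what they or their families are known to carry. A gene can therefore stand in a class without an established substrate of its own.

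The cells were primary cardiac fibroblasts from ventricles of newborn Sprague-Dawley rats aged 1 to 2 days, enriched by letting them attach before the medium with cardiomyocytes was removed, and starved of serum overnight. Both groups were transfected with Lipofectamine RNAiMAX, the NC group with 50 nM of the control that the labels call NC and the antagomiR group with 50 nM of an antagomiR, a modified antisense oligonucleotide against miR-142-3p. Each group had 3 libraries of polyadenylated RNA, with 19472409 to 24622667 fragments each. No untransfected group is analysed here, the time from transfection to harvest was not given in the sources used here, and nothing in the labels says that the replicates came from separate isolations, so a p-value here covers the spread between libraries alone, which may be technical.

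The microRNA that the antagomiR is directed against is shown first, with its seed (bases 2 to 8, the stretch that pairs with targets) in capitals. Its mature sequence in RefSeq lies at chr10:73055155-73055177 on the plus strand of GRCr8. The Mir142 precursor gene was at 1.11 to 2.78 FPKM in NC against 1.83 to 3.15 FPKM with the antagomiR, from 3 to 8 fragments per library (log2 fold change 0.42, adjusted p = 0.25, and 0.67 with adjusted p = 0.0442 without NC replicate 1), and libraries of polyadenylated RNA do not measure the mature form that the antagomiR binds.
rno-miR-142-3p: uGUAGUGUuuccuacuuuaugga

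Carriers work with gradients and with each other. Pumps that spend ATP keep sodium low inside the cell and lysosomes acid, exchangers and cotransporters use those gradients to move nutrients, and carriers of the mitochondrial inner membrane (family Slc25) link the cytosol with energy metabolism. In the heart, fibroblasts need amino acids for collagen, sulfate and nucleotide sugars for proteoglycans, and metals such as copper, iron and zinc for enzymes that modify the matrix.

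Slc genes moved in both directions, and a few moved far. Of the 163, 31 rose (19%, against 17.5% of all 12024 tested genes), 20 fell (12.3%, against 9.21%) and 112 did not pass the test (limma on log2(FPKM + 1), adjusted p under 0.05). Together 31.3% passed, against 26.7% of all tested genes. The 3 NC and 3 antagomiR values did not overlap for 80 of them (49.1%, against 44.6%). Their median log2 fold change, antagomiR minus NC throughout, was 0.03, against 0.06 over all tested genes. Changes were mostly small: a change of at least 1.5-fold in mean FPKM was seen for 11 genes that rose and 6 that fell, and of at least 2-fold for 5 and 0. The share that rose among the genes that passed was 60.8%, but 48.9% with median-ratio scaling and 36.7% with quantile normalization, where it was 51.5% and 43.1% for all tested genes and the median of all tested genes moved by -0.06 and -0.11. When each library was left out in turn, 18 of the 31 genes that rose and 11 of the 20 that fell kept their calls throughout.

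The summed level of the carriers overlapped between the groups. Over the 163 genes it was 2953 to 3140 FPKM in NC against 2986 to 3002 FPKM with the antagomiR. The 5 genes above 100 FPKM on average made up 26.9% of it: Slc25a4 and Slc25a5, which exchange ADP for ATP across the mitochondrial inner membrane, Slc66a3, the heme carrier Slc48a1 and the taurine carrier Slc6a6. The median member had a mean of 8.29 FPKM and 479 fragments per library, 8 had fewer than 100 fragments on average, and the lowest, Slc35g1, had 50.

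**Figure D1:**
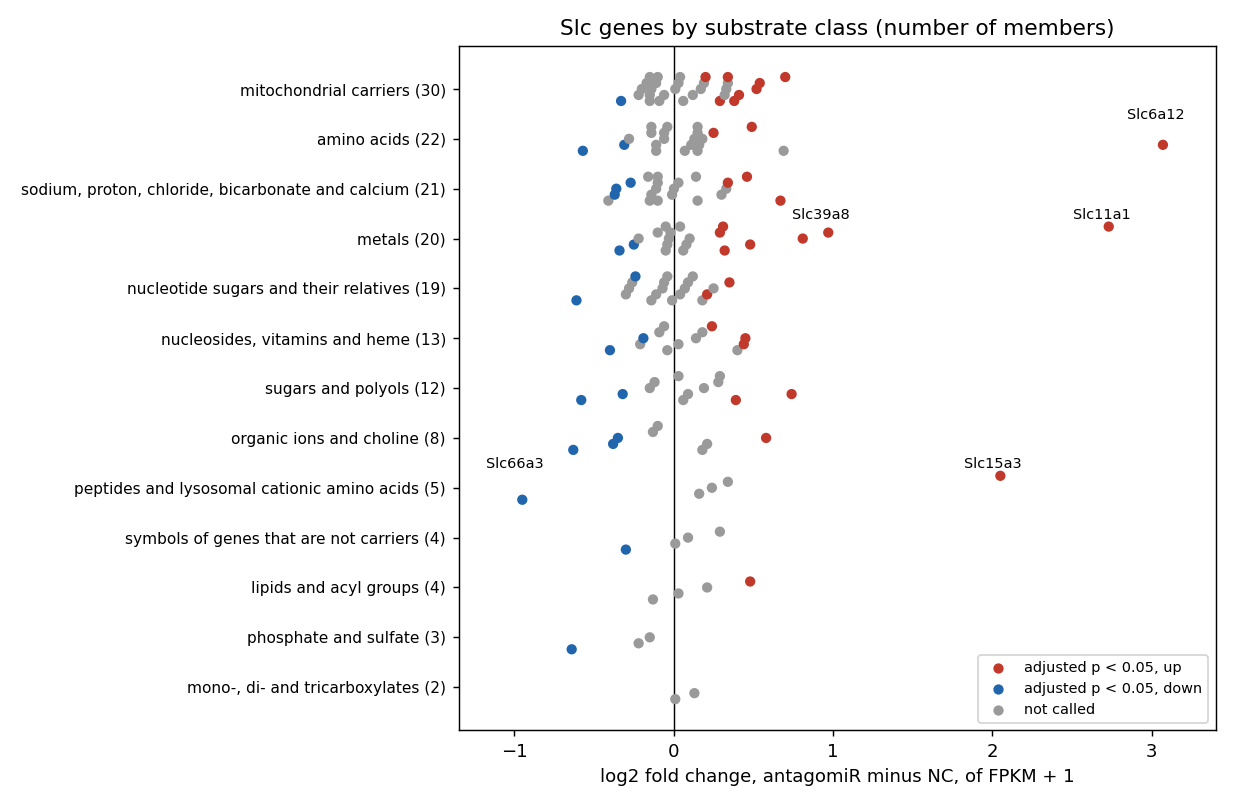
Log2 fold change (antagomiR minus NC, of FPKM + 1) of each of the 163 Slc genes, 1 point per gene, in rows by substrate class with the number of genes in parentheses; red and blue points passed the test. Most points lie near 0, and Slc6a12, Slc11a1 and Slc15a3 stand far to the right at 3.07, 2.73 and 2.05, with Slc66a3 at the left end at -0.95.

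Leukocyte transcripts were present in the cultures and moved with some of these genes. Of 17 leukocyte markers 14 were tested, 6 rose, and all 14 had their highest NC value in replicate 3. Their summed level was 149, 219 and 760 FPKM in the NC replicates in order against 979 to 1092 FPKM with the antagomiR. The largest part was Lyz2, at 62.7, 105 and 390 against 566, 484 and 520 FPKM, which did not pass (limma adjusted p = 0.0511). C1qa, C1qb, C1qc and Mrc1 did not pass either, with all antagomiR libraries below NC replicate 3 and above the other NC libraries. The T cell gene Cd3e was at 0, the B cell gene Cd79a at most 0.18 FPKM and Cd163 at most 0.0235 FPKM. Fibroblast markers (8 of 8 tested, 5 risen and 2 fallen) summed to 8794 to 8916 FPKM in NC against 8264 to 8596 FPKM with the antagomiR. That sum was mostly Col1a1 (means 4609 and 4161 FPKM, no call) and Col1a2 (3386 and 2731 FPKM, fallen). Thy1 also fell, from a mean of 47.7 to 34 FPKM. Postn, Tcf21, Ddr2, Pdgfra (8.53 to 27.5 FPKM) and Dcn (12.3 to 33.4 FPKM) rose. The sums for cardiomyocyte markers (6 of 7 tested, 1 risen and 1 fallen) were 389 to 431 against 296 to 356 FPKM. Most of that was Tnnt2, which fell from a mean of 339 to 254 FPKM, while Myh7 rose from 5.47 to 7.47 FPKM. No other marker list summed to more than 31.1 FPKM in any library. In RNA from whole cultures, fewer cells of a type and less RNA per cell cannot be told apart. The part of leukocyte RNA in each result was not tested.

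Amino acid and osmolyte carriers (22 genes) held the largest rise. Slc6a12 (chr4:154585500-154603750 in mRatBN7.2) encodes a sodium-driven carrier of betaine and GABA through which cells take up betaine as an osmolyte. The values were 1.27, 1.21 and 6.21 FPKM in the 3 NC replicates in order, and 28.2, 25.7 and 26.4 FPKM in antagomiR replicates 1 to 3. All antagomiR libraries lay above all NC libraries, and NC replicate 3 lay 5.01-fold above the mean of the other NC libraries. The means were 2.9 ± 2.87 and 26.8 ± 1.26 FPKM (SD, n = 3), a log2 fold change of 3.07 (SE, the standard error, 0.43, limma adjusted p = 0.00243), and without NC replicate 3 it was 3.63 (adjusted p = 1.03e-07). Against NC replicate 3 alone the antagomiR mean was 4.31-fold higher.

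Other amino acid carriers moved less. Slc1a4, which exchanges alanine, serine and cysteine, fell from 50.8, 45.8 and 43.7 FPKM in NC to 29.4, 32.5 and 31.7 FPKM (log2 fold change -0.57, SE 0.07, adjusted p = 0.00159), with no overlap between groups. Slc7a1, a carrier of arginine and lysine, fell from 14.9, 14.8 and 14.4 to 11.5, 12.1 and 11.4 FPKM (-0.31, adjusted p = 0.00592). Slc1a3, a glutamate carrier, rose from 4.81, 3.73 and 3.49 to 5.74, 5.99 and 6.29 FPKM (0.49, adjusted p = 0.0149). The call of Slc1a3 was lost without NC replicate 2 or antagomiR replicate 2 or 3 (adjusted p at most 0.0654). Slc36a4, a proline and tryptophan carrier, rose by 0.25 (adjusted p = 0.0298), and its call was lost under both other scalings (0.0728 and 0.3) and without NC replicate 2 or any antagomiR library (at most 0.112).

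The most abundant amino acid carriers did not pass. The taurine carrier Slc6a6 was at 128, 114 and 136 FPKM in NC against 115, 119 and 114 FPKM with the antagomiR (-0.11, adjusted p = 0.304). Slc38a2, a neutral amino acid carrier that stressed cells use to take up glutamine and proline, was at 116, 94.2 and 90.8 against 93, 97.2 and 95.9 FPKM (-0.06, adjusted p = 0.66). All 7 tested members of its family, Slc38, were without a call, where 26.7% of all tested genes had one. Slc43a2, a carrier of large neutral amino acids, was at 1.31, 1.89 and 3.86 FPKM in NC against 4.36, 4.43 and 3.69 FPKM with the antagomiR (0.69, adjusted p = 0.0875), with NC replicate 3 inside the antagomiR range. Leaving that library out, Slc43a2 passed as risen at 0.99 (adjusted p = 0.000697). In that fit 6 of the 22 genes of this class rose and 3 fell, while 26.5% and 13.9% of all tested genes did. With all libraries 3 rose and 2 fell (13.6% and 9.09%, against 17.5% and 9.21%).

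Carriers of peptides and of lysosomal amino acids (5 genes) gave both a large rise and the deepest fall. Slc15a3 (chr1:207492365-207507157) exports histidine and small peptides from endosomes and lysosomes and is known from myeloid cells. It was at 1.76, 1.73 and 6.22 FPKM in NC against 13.9, 15.4 and 14.6 FPKM with the antagomiR (log2 fold change 2.05, SE 0.36, adjusted p = 0.00601). NC replicate 3 again stood between the other NC libraries and the antagomiR libraries, and the log2 fold change without it was 2.51 (adjusted p = 6.43e-07). Its relative Slc15a4 was at 5.21, 5.13 and 6.46 against 6.52, 7.2 and 6.65 FPKM and did not pass (0.24, adjusted p = 0.1).

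Slc66a3 (chr6:39774808-39786303) belongs to the PQ-loop proteins, a family that includes exporters of amino acids from lysosomes. It was at 187, 184 and 179 FPKM in NC, then at 92.7, 99.1 and 92.3 FPKM with the antagomiR. The groups were far apart and each was tight, with means of 183 ± 3.97 and 94.7 ± 3.84 FPKM (SD, n = 3). This is a log2 fold change of -0.95 (SE 0.05, adjusted p = 5.96e-05), between -1.01 and -0.93 in all 15 alternative fits. This gene made up most of the class, so the class sum (201 to 204 FPKM in NC against 126 to 135 FPKM with the antagomiR) mainly followed Slc66a3. Its relatives Slc66a1 and Slc66a2 did not pass (0.16 and 0.34, adjusted p = 0.34 and 0.0702).

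**Figure D2:**
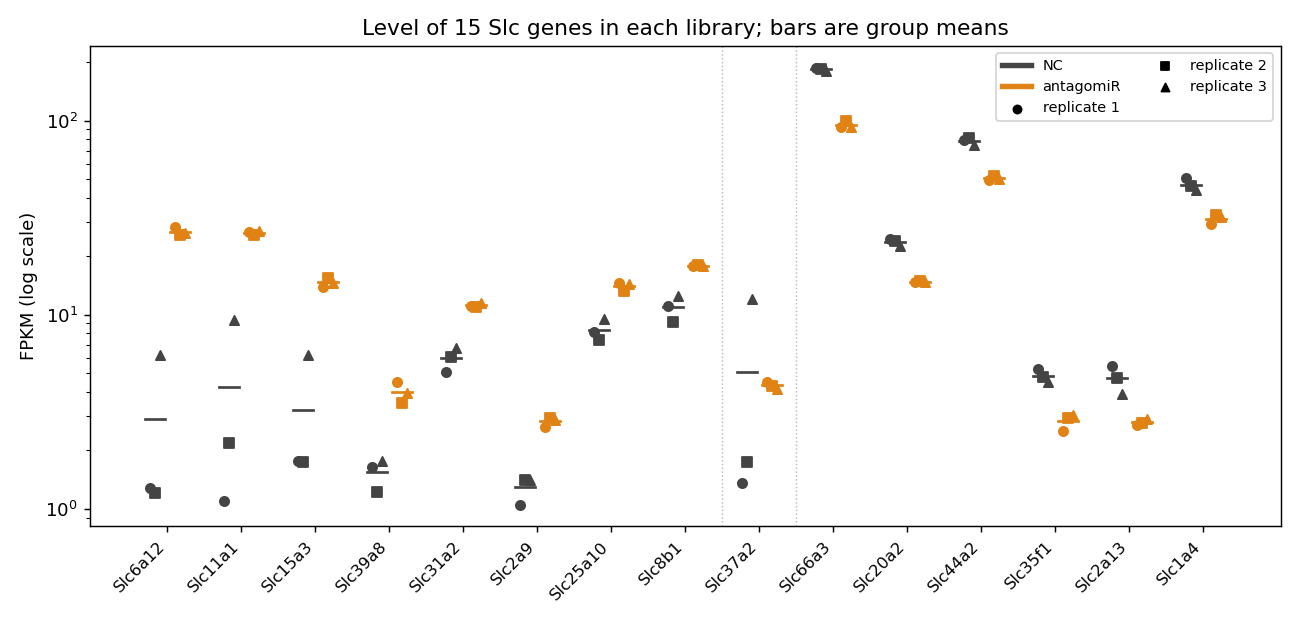
FPKM (log scale) of 15 Slc genes in each library, with NC in grey and antagomiR in orange, a shape for each replicate number and a bar at each group mean; genes that rose stand left of the dotted lines and genes that fell right of them. Triangles for NC replicate 3 lie well above the other NC libraries for Slc6a12, Slc11a1, Slc15a3 and, between the lines, Slc37a2, which was at 12 FPKM there and at 4.15 to 4.51 FPKM with the antagomiR, and they lie close to the other NC libraries for the genes that fell.

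Of the metal carriers (20 genes) 7 rose and 2 fell (35% and 10%, against 17.5% and 9.21% of all tested genes, a difference that was not tested), 6 and 3 after either other scaling, and the summed level was 351, 343 and 373 FPKM in NC against 400, 405 and 411 FPKM with the antagomiR. The phagosomal carrier Slc11a1 (chr9:75957316-75968101), which pumps iron and manganese out of phagosomes in macrophages, was at 1.09, 2.18 and 9.42 FPKM in NC against 26.6, 25.6 and 26.8 FPKM with the antagomiR. All antagomiR libraries lay above all NC libraries, of which NC replicate 3 was the highest. The log2 fold change was 2.73 (SE 0.52, adjusted p = 0.00905), or 3.41 without NC replicate 3 (adjusted p = 6.33e-06), and the antagomiR mean was 2.8-fold that of NC replicate 3 alone.

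Among the zinc carriers, family Slc39 brings zinc into the cytosol from outside the cell or from organelles. Of its 8 members kept by the selection 4 rose and 1 fell (50% and 12.5%, against 17.5% and 9.21% of all tested genes). The counts were 3 and 1 under median-ratio scaling and 4 and 1 under quantile normalization. Slc39a14, which the selection left out, was tested as well and is given further below. Slc39a8, which also carries manganese and iron, rose from 1.64, 1.22 and 1.77 FPKM to 4.5, 3.5 and 3.95 FPKM (0.97, SE 0.12, adjusted p = 0.0014), and here NC replicate 3 lay with the other NC libraries. Slc39a10 rose by 0.48 and Slc39a6 by 0.29 (adjusted p = 0.0022 and 0.00465). Slc39a1, the most abundant zinc carrier, rose from 67.3, 66.4 and 78.7 to 87.2, 85 and 90.8 FPKM (0.31, adjusted p = 0.0226), a call lost after median-ratio scaling (0.0512) and without any 1 library other than NC replicate 3 (at most 0.0948). Slc39a13, which releases zinc from vesicles of the secretory pathway and is known from a connective tissue disorder, fell from 31.8, 33.4 and 31.6 to 27.8, 27.2 and 25.9 FPKM (-0.25, adjusted p = 0.0125). It lies over the proteasome gene Psmc3 for 5794 bp, and its call was lost without NC replicate 2 (0.0536) or antagomiR replicate 3 (0.068).

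The other zinc family, Slc30, most of whose members move zinc out of the cytosol, had 6 tested members. None was called at an adjusted p under 0.05 by limma or by voom, where 26.7% of all tested genes were called by limma. The log2 fold changes of the 6 ran from -0.22 for Slc30a9 to 0.10 for Slc30a6, and 1 fell after either other scaling and without NC replicate 3.

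Copper carriers behaved unequally. Slc31a2, a copper carrier of endosomes and lysosomes, was at 5.06, 6.08 and 6.75 FPKM in NC, then at 11.1, 10.9 and 11.5 FPKM with the antagomiR (0.81, SE 0.10, adjusted p = 0.00121), without overlap. Slc31a1, the main importer of copper at the cell surface, was at 41.7, 41.6 and 44.9 against 43.8, 45.1 and 44.7 FPKM (0.06, adjusted p = 0.446). The ratio of Slc31a2 to Slc31a1 in FPKM was 0.121, 0.146 and 0.15 in NC and 0.252, 0.241 and 0.258 with the antagomiR. For magnesium, Slc41a1, which extrudes it from the cell, rose from 7.19, 6.61 and 6.92 to 8.72, 8.52 and 9.36 FPKM (0.32, adjusted p = 0.0115), and Slc41a3 fell from 5.16, 4.85 and 5.35 to 3.68, 4.23 and 3.67 FPKM (-0.34, adjusted p = 0.0195). The call of Slc41a1 was lost without antagomiR replicate 3 (0.0599), and that of Slc41a3 without antagomiR replicate 1 (0.0786) or 3 (0.0852).

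**Figure D3:**
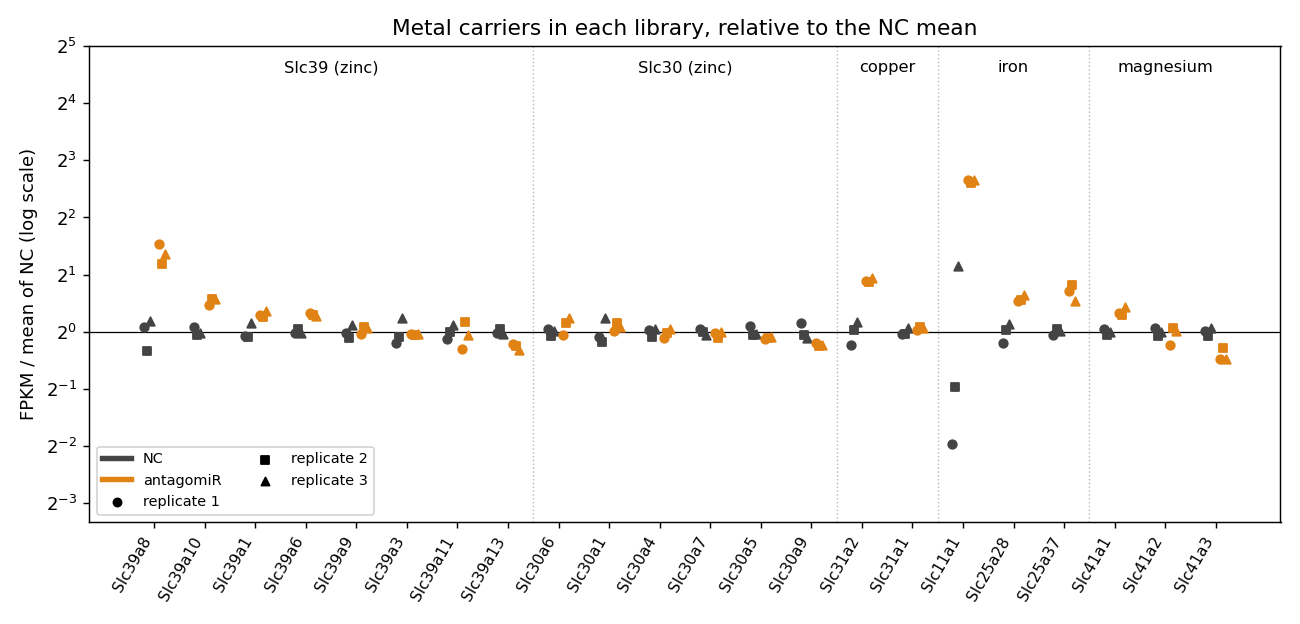
FPKM of 22 carriers of zinc, copper, iron and magnesium in each library, divided by the gene's NC mean (log scale), with NC in grey, antagomiR in orange and a shape for each replicate number. Orange points lie above the NC libraries for Slc39a8, Slc31a2 and Slc11a1, near 1 for all of family Slc30, and below for Slc39a13 and Slc41a3.

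Mitochondrial and related carriers of family Slc25 (30 genes) rose in 8 cases and fell in 1. These are 26.7% and 3.33%, against 17.5% and 9.21% of all tested genes, a difference that was not tested. The counts were 6 and 3 under median-ratio scaling and 5 and 7 under quantile normalization. All tested genes shifted in the same sense under quantile normalization, from 2109 risen and 1107 fallen to 1413 and 1869. Slc25a10, which exchanges malate and succinate for phosphate, rose from 8.09, 7.44 and 9.46 to 14.6, 13.3 and 14.4 FPKM (0.70, SE 0.09, adjusted p = 0.00179). Both mitoferrins, the iron importers of mitochondria, rose: Slc25a28 from 8.24, 9.66 and 10.3 to 13.7, 13.8 and 14.7 FPKM (0.54, adjusted p = 0.00429). Slc25a37, the other, went from 2.21, 2.38 and 2.31 to 3.78, 4.05 and 3.34 FPKM (0.52, adjusted p = 0.00491). For these 3 genes and for Slc25a20, which brings acylcarnitines in for fatty acid oxidation (0.41, adjusted p = 0.0106), the groups did not overlap and the call was kept in every fit that tested them.

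Another group of members rose with less margin. The coenzyme A carrier Slc25a42 (0.38), the pyrimidine nucleotide carrier Slc25a33 (0.34), the glutathione importer Slc25a39 (0.29) and the peroxisomal cofactor carrier Slc25a17 (0.20) had adjusted p between 0.0178 and 0.0323. The calls were lost without antagomiR replicate 1 for all of them (0.0879, 0.0673, 0.104 and 0.111), and also without NC replicate 2 for Slc25a42, Slc25a39 and Slc25a17 (0.0794, 0.0975 and 0.0608). Without NC replicate 1 the calls of Slc25a39 and Slc25a17 were lost (0.0621 and 0.0586), without antagomiR replicate 2 those of Slc25a42, Slc25a33 and Slc25a39 (0.0675, 0.0758 and 0.0744), and without antagomiR replicate 3 those of Slc25a42, Slc25a39 and Slc25a17 (0.0501, 0.119 and 0.127). The citrate carrier Slc25a1, which supplies the cytosol with citrate for lipid synthesis, was the member that fell, from 56.9, 49.9 and 60.1 to 47.2, 41.5 and 42.8 FPKM (-0.33, adjusted p = 0.0244). Its call was lost without NC replicate 1 (0.0633) or antagomiR replicate 2 or 3 (0.093 and 0.0938).

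The ADP/ATP exchangers, the most abundant members, did not pass. Slc25a4 was at 321, 326 and 345 FPKM in NC against 325, 296 and 297 FPKM with the antagomiR (-0.11, adjusted p = 0.227). Slc25a5 was at 94.7, 96 and 117 against 115, 111 and 107 FPKM (0.12, adjusted p = 0.36), and it passed as risen at 0.22 without NC replicate 3 (adjusted p = 0.00789). Without that library 13 of the 30 members of the family rose and 4 fell, while 26.5% and 13.9% of all tested genes did.

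Choline carriers moved in opposite directions. Slc44a1 (chr5:68063618-68241909), a choline importer of the cell surface and mitochondria, was at 37, 33.9 and 33.1 FPKM in NC, then at 50.1, 54.1 and 52.2 FPKM with the antagomiR (0.58, SE 0.06, adjusted p = 0.000739). Its relative Slc44a2 (chr8:19870888-19905342) was at 79.4, 81.3 and 74.6 against 49.1, 51.8 and 50 FPKM (-0.63, SE 0.05, adjusted p = 0.000299). Neither pair of groups overlapped, and both calls were kept in every fit. In FPKM, the ratio of Slc44a2 to Slc44a1 was 2.15, 2.4 and 2.25 in NC, and 0.98, 0.958 and 0.958 with the antagomiR. In the same class of 8 organic ion carriers, Slc22a17, a receptor for lipocalin 2, fell from 20.5, 22.6 and 21.8 to 16.6, 16.1 and 16.5 FPKM (-0.38, adjusted p = 0.00302), and Slc10a7, a bile acid carrier relative needed for skeletal proteoglycans, fell from 9.31, 9.51 and 9.42 to 6.61, 7.49 and 7.38 FPKM (-0.35, adjusted p = 0.00792).

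Among the 21 carriers of sodium, protons, chloride, bicarbonate and calcium 3 rose and 3 fell (14.3% each, against 17.5% and 9.21% of all tested genes). After quantile normalization the counts were 3 and 5. Slc8b1, which lets calcium out of mitochondria in exchange for sodium, rose from 11.1, 9.18 and 12.4 to 17.7, 18.1 and 17.8 FPKM (0.67, SE 0.10, adjusted p = 0.00316). The surface sodium-calcium exchanger Slc8a1, known from heart muscle, was at 10.8, 11.2 and 12 against 10.9, 12.4 and 11.5 FPKM (0.03, adjusted p = 0.779).

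Potassium-chloride cotransporters, which let cells lose volume, moved against each other. Slc12a7 rose from 8.44, 9.2 and 9.88 to 12.1, 13.2 and 13.6 FPKM (0.46, adjusted p = 0.00522), and Slc12a4 fell from 47, 42.3 and 40 to 34.1, 32.7 and 33.1 FPKM (-0.36, adjusted p = 0.00832). The ratio of Slc12a4 to Slc12a7 in FPKM was 5.57, 4.59 and 4.05 in NC and 2.83, 2.47 and 2.44 with the antagomiR. Slc12a2, which loads cells with sodium, potassium and chloride, fell by 0.37 on the log2 scale (adjusted p = 0.0208), and the anion exchanger Slc4a2, which overlaps Fastk for 1006 bp, by 0.27 (adjusted p = 0.0344). Both calls were lost without antagomiR replicate 1, 2 or 3, with adjusted p of 0.0801, 0.0611 and 0.0733 for Slc12a2 and of 0.101, 0.0956 and 0.118 for Slc4a2.

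Of 12 sugar and polyol carriers 2 rose and 2 fell (16.7% each, against 17.5% and 9.21% of all tested genes). After median-ratio scaling the counts were 1 and 2. The 2 that rose were low genes. Slc2a9, which carries urate, was at 1.05, 1.41 and 1.41 FPKM in NC, then at 2.65, 2.92 and 2.87 FPKM with the antagomiR (0.74, SE 0.10, adjusted p = 0.00207). Slc5a3, the sodium-driven carrier of the osmolyte myo-inositol, was at 1.08, 0.781 and 0.961 against 1.76, 1.4 and 1.45 FPKM (0.39, adjusted p = 0.036). Its NC mean of 0.939 FPKM lay below the minimum, which it reached only through the antagomiR group, so its call, and its place in the count of the class, support nothing beyond these values. It shares 23270 bp with an unnamed gene (ENSRNOG00000059381) that went from 5.94 to 10.7 FPKM, and reads of the pair cannot be told apart without a stated strand setting. The call of Slc5a3 was lost under median-ratio (0.0511) and quantile scaling (0.161) and without NC replicate 2 (0.111) or antagomiR replicate 1 (0.133), 2 (0.0776) or 3 (0.095).

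The proton-driven myo-inositol carrier Slc2a13 fell, from 5.43, 4.73 and 3.92 to 2.69, 2.77 and 2.89 FPKM (-0.58, SE 0.11, adjusted p = 0.00787). Slc2a10, known from a disorder of arterial walls, fell by 0.32 on the log2 scale (adjusted p = 0.0224), a call lost without NC replicate 2 (0.07) or antagomiR replicate 2 (0.0846) or 3 (0.0725). Slc37a2, a sugar phosphate exchanger abundant in macrophages, was at 1.35, 1.74 and 12 FPKM in NC, then at 4.51, 4.28 and 4.15 FPKM with the antagomiR (0.28, SE 0.60, adjusted p = 0.768). NC replicate 3 was here the highest of all 6 libraries, 7.74-fold above the mean of the other NC libraries, and without it Slc37a2 was called up at 1.07 (adjusted p = 0.000139).

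Phosphate and sulfate carriers (3 genes) had lower summed levels with the antagomiR, at 37.7, 37.1 and 37.3 FPKM against 53.7, 50.1 and 46 FPKM in NC. Slc20a2 (chr16:69460462-69521711), a sodium-driven phosphate importer, fell from 24.4, 23.9 and 22.6 to 14.7, 14.9 and 14.7 FPKM (-0.64, SE 0.05, adjusted p = 0.000256), a call kept in every fit. Its relative Slc20a1 was at 23.1, 20.1 and 17.3 against 17.3, 16.6 and 17.5 FPKM (-0.22, adjusted p = 0.154), and it passed as fallen at -0.32 without NC replicate 3 (adjusted p = 0.00938). The sulfate importer Slc26a2, needed for sulfated proteoglycans of cartilage, was at 6.23, 6.19 and 6.05 against 5.68, 5.55 and 5.14 FPKM (-0.15, adjusted p = 0.135).

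Of 13 carriers of nucleosides, vitamins and heme 3 rose and 2 fell (23.1% and 15.4%, against 17.5% and 9.21% of all tested genes). The adenosine carrier Slc29a1, which overlaps Aars2, fell from 25.4, 23.5 and 27.2 to 19.2, 18.4 and 19.3 FPKM (-0.40, adjusted p = 0.00467), while the lysosomal nucleoside carrier Slc29a3 rose from 16.6, 19.4 and 22.8 to 25.5, 27.2 and 27.6 FPKM (0.44, adjusted p = 0.0228). Slc19a2, a thiamine importer, rose from 6.2, 5.37 and 6.11 to 8.09, 8.71 and 8.48 FPKM (0.45, adjusted p = 0.0044). Smaller changes were those of Slc5a6, which takes up biotin and pantothenate (0.24, adjusted p = 0.0317), and of the heme carrier Slc48a1, from 130, 136 and 135 to 118, 119 and 116 FPKM (-0.19, adjusted p = 0.0251).

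The calls of Slc29a3 and Slc48a1 were lost without NC replicate 2 (0.0736 and 0.0929), and likewise without antagomiR replicate 1 (0.0572 and 0.0898), 2 (0.0786 and 0.0804) or 3 (0.086 and 0.121). That of Slc5a6 was lost without any 1 library other than NC replicate 3 (at most 0.121), under median-ratio (0.0832) and quantile scaling (0.32).

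Most nucleotide sugar carriers and their relatives of family Slc35 (19 genes) supply the Golgi apparatus with substrates for glycosylation. In this class 2 were called up and 2 down (10.5% each, against 17.5% and 9.21% of all tested genes). None was called up after median-ratio or quantile scaling. Slc35f1, whose substrate is not established, fell from 5.27, 4.74 and 4.5 to 2.51, 2.94 and 3.03 FPKM (-0.61, SE 0.09, adjusted p = 0.00316), a call kept in every fit that tested it. Slc35b1, which exchanges ATP into the endoplasmic reticulum, fell from 60.5, 58.6 and 64.3 to 51.8, 50.5 and 52.4 FPKM (-0.24, adjusted p = 0.0153), a call lost without antagomiR replicate 1, 2 or 3 (0.0593, 0.069 and 0.0592). The GDP-fucose carrier Slc35c1 (0.21, adjusted p = 0.0357) and Slc35f6 (0.35, adjusted p = 0.0244) rose, and both calls were lost without any 1 library other than NC replicate 3 (at most 0.133 and 0.092).

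Small classes held few changes. Of 4 carriers of lipids and acyl groups Slc27a3, which links fatty acids to coenzyme A, rose from 24.1, 26.8 and 29 to 35.8, 37.2 and 39.1 FPKM (0.48, adjusted p = 0.00426). Neither of the 2 carboxylate carriers that the selection kept passed by limma or by voom. Among the genes that are not carriers, the scaffold Slc9a3r2 fell from 51.9, 55.4 and 63.9 to 47.4, 43.2 and 47.8 FPKM (-0.30, adjusted p = 0.0415), a call lost without NC replicate 2 (0.0929) or antagomiR replicate 1 (0.0962), 2 (0.139) or 3 (0.0938), and also without a trend (0.0567).

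To place these genes beside their promoters, the 250 bases before the annotated start were read from RefSeq (GRCr8), which held a window for 128 of the 163 genes, among them 25 that rose and 15 that fell. The motifs searched, on both strands, were CACGTG (a palindromic E-box), CCAAT (a common promoter element), TGANTCA (an AP-1 type site), TCACNCCAC (letters of sterol response elements) and the kB site. CACGTG was in 16 of the 128 windows (12.5%) and in 5.79% of all 27457 windows, CCAAT in 50 (39.1%, against 34.3%), TGANTCA in 7 (5.47%, against 6.36%), TCACNCCAC in 1 (0.781%, against 0.976%) and the kB site in 12 (9.38%, against 6.41%). The 27457 windows were not limited to genes that reached 1 FPKM, as the 128 were, and the differences were not tested. By direction, CACGTG was in 4 windows of risen and 2 of fallen genes, CCAAT in 12 and 6, TGANTCA in 1 and 1, TCACNCCAC in none of either and the kB site in 3 and 1.

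Promoter windows are shown for the largest rise (Slc6a12) and the deepest fall (Slc66a3), for a risen and a fallen gene with the same E-box close to the start (Slc31a2 and Slc1a4), and for a risen gene with a kB site (Slc25a10). Capitals mark the motif matches. The windows lie at chr4:156257268-156257517 (plus strand), chr6:45515118-45515367 (minus), chr5:80753368-80753617 (plus), chr14:98761563-98761812 (minus) and chr10:106264146-106264395 (plus) of GRCr8, in that order of genes, and are written 5′ to 3′ along each gene.
Slc6a12: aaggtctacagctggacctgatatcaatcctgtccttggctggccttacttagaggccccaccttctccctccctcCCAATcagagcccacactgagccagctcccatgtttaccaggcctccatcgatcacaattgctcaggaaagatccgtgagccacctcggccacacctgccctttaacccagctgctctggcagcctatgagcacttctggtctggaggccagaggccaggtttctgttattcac
Slc66a3: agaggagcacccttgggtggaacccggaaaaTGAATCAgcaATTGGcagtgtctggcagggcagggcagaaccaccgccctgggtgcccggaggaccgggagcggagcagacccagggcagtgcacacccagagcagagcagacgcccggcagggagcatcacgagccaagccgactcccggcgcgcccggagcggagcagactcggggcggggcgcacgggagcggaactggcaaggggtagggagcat
Slc31a2: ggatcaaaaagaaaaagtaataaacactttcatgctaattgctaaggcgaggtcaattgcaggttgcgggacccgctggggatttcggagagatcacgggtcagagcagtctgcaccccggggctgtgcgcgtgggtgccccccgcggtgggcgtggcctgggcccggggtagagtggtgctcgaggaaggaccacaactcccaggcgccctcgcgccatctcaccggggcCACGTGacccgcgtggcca
Slc1a4: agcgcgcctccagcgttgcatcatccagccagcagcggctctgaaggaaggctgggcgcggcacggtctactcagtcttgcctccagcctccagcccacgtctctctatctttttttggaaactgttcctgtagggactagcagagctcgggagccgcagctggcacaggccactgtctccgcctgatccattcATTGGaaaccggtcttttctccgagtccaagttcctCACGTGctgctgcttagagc
Slc25a10: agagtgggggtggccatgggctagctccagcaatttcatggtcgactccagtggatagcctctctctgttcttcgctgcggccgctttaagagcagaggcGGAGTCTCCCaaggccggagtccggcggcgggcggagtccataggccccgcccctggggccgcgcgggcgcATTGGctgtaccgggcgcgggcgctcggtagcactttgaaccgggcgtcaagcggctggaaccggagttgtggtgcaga
In Slc6a12 the marked letters are CCAAT, 174 bases before the start. In Slc66a3 they are TGANTCA 219 bases and CCAAT (read on the other strand) 209 bases before it. The CACGTG of Slc31a2 begins 19 bases before the start and that of Slc1a4, whose window also holds CCAAT, 20 bases before it, so the same letters at nearly the same distance stand before a gene that rose and a gene that fell. Slc25a10 has the kB site 150 bases and CCAAT 79 bases before the start, both on the other strand. A match is a description of these letters and not a shown binding site.

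Of the 11 carriers that the selection left out, 10 were tested, and Slc40a1 is not analysed here. Of the 10 tested, 6 rose and 1 fell (60% and 10%, against 17.5% and 9.21% of all tested genes). The 6 include Slc16a3, whose place in the count supports nothing, as given below, and the difference was not tested. The counts were 5 and 2 under median-ratio scaling and 5 and 1 under quantile normalization. The iron carrier Slc11a2 was at 14.4, 12.6 and 16.9 FPKM in NC, then at 25.8, 27.3 and 27.1 FPKM with the antagomiR (0.83, adjusted p = 0.00121), and Slc39a14, which carries zinc and iron, at 10, 8.9 and 8.4 against 16.7, 16.6 and 16.8 FPKM (0.81, adjusted p = 0.000339). The arginine carrier Slc7a2 rose by 0.71, the glucose carrier Slc2a1 by 0.45, and the lactate carrier Slc16a1 by 0.39, while Slc7a5, a leucine carrier, fell by 0.27. Slc16a3, another lactate carrier, was called up at 0.85, from 0.334, 0.363 and 1.21 FPKM in NC to 1.92, 1.91 and 1.8 FPKM with the antagomiR. Its NC replicate 3 value lay well above the other NC libraries, as those of the leukocyte markers did, and with an NC mean of 0.637 FPKM it reached the minimum only through the antagomiR group, so it had to differ and its call supports nothing. The calls of Slc16a3, Slc16a1 and Slc7a5 were lost without antagomiR replicate 3 (0.0625, 0.0938 and 0.0738), and none of the 3 calls was kept without each library in turn.

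Carriers that bear other symbols moved both ways as well. Of 37 listed 30 were tested, 4 rose and 4 fell, and the called share of 26.7% equalled that of all tested genes. Under quantile normalization 4 rose and 8 fell, and without NC replicate 3 the counts were 7 and 4. Slco4a1, an organic anion and thyroid hormone carrier, was at 0.676, 1.07 and 5.31 FPKM in NC, then at 24.2, 21 and 20.3 FPKM with the antagomiR (3.02, SE 0.45, adjusted p = 0.00328), again with NC replicate 3 between the other NC libraries and the antagomiR libraries. The prostaglandin carrier Slco2a1 rose from 0.575, 0.45 and 0.569 to 2.35, 2.42 and 1.88 FPKM (1.07, adjusted p = 0.000587), with NC replicate 3 among the other NC libraries. With an NC mean of 0.531 FPKM it reached the minimum only through the antagomiR group. Its call, and its place in the count of the list, therefore support nothing beyond these values. Ucp2, a mitochondrial carrier, rose from 31.7, 36.3 and 56.2 to 96.9, 85.9 and 91.2 FPKM (1.16, adjusted p = 0.00488), with NC replicate 3 the highest NC library, and Slco3a1 rose by 0.69. Mfsd2a, which takes up lysophosphatidylcholine with long-chain fatty acids, fell from 4.26, 3.33 and 3.36 to 0.76, 1.18 and 1.07 FPKM (-1.21, adjusted p = 0.000656). Flvcr2 (-0.50), the sphingosine phosphate exporter Spns2 (-0.42) and Tmem165 (-0.32) fell with adjusted p between 0.0115 and 0.0186, and those calls were lost without antagomiR replicate 1 (0.0548, 0.0754 and 0.0505) or 2 (0.053, 0.0682 and 0.054), that of Spns2 also without NC replicate 2 (0.0699).

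Pumps that set the gradients were tested as a list of 34, of which 21 reached the minimum, 7 rose and 2 fell (33.3% and 9.52%, against 17.5% and 9.21% of all tested genes), or 12 and 2 without NC replicate 3. Among 11 tested subunits of the V-ATPase, which acidifies lysosomes, 5 rose and none fell (45.5% called, against 26.7%), with 3 risen under median-ratio scaling and 8 without NC replicate 3. Atp6v1e1 went from 47.3, 47.1 and 56.5 to 77.1, 69.4 and 71.5 FPKM (0.53, adjusted p = 0.00419), and Atp6v1g1, Atp6v0a1, Atp6v1d and Atp6v1a rose by 0.28 to 0.36. The calls of Atp6v1a and Atp6v1d were lost without any 1 library other than NC replicate 3 (at most 0.136 and 0.117), and that of Atp6v1g1 without NC replicate 2 (0.0662) or antagomiR replicate 1 (0.0733) or 3 (0.0651). The lysosomal polyamine pump Atp13a2 rose from 4.83, 5.16 and 7.14 to 10.9, 11.2 and 11.9 FPKM (0.89, adjusted p = 0.00266).

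Subunits of the sodium-potassium pump moved apart: Atp1b3 rose by 0.39 (adjusted p = 0.0147, and 0.0595 and 0.0651 without antagomiR replicate 1 or 3), and Atp1b1 fell from 32.9, 33 and 35.8 to 23.8, 21.4 and 21.3 FPKM (-0.59, adjusted p = 0.000912). Atp2b4, a calcium pump of the cell surface, fell from 12, 10.8 and 9.97 to 5.54, 5 and 5.23 FPKM (-0.93, adjusted p = 0.000342). Of 13 tested partners and regulators of carriers 3 rose and 0 fell (23.1% called, against 26.7%). Those counts were 1 and 0 under median-ratio scaling, 2 and 2 under quantile normalization and 5 and 2 without NC replicate 3. Txnip, which holds back glucose uptake, rose by 0.64 (adjusted p = 0.00165). Emb, a partner of lactate carriers, rose from 5.28, 4.32 and 9.59 to 10.4, 11.9 and 11.5 FPKM (0.79, adjusted p = 0.0449), with NC replicate 3, the library highest in leukocyte markers among NC, close to the antagomiR libraries. Cab39, a partner of the kinases that control chloride cotransporters, rose by 0.21 (adjusted p = 0.0306), and both of these calls were lost without any 1 library other than NC replicate 3 (at most 0.129).

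NC replicate 3 weighed on the counts. It was the highest NC library for 18 of the 31 risen genes, 7 of the 20 fallen and 58 of the 112 without a call. That count was not made over all tested genes, so it only describes the Slc genes. With NC replicate 3 left out, 54 Slc genes rose and 28 fell (33.1% and 17.2%, against 26.5% and 13.9% of all tested genes). The other settings gave 19 to 34 risen and 11 to 38 fallen genes. Near the minimum of 1 FPKM, the genes just inside were Slc46a3, Slc25a45 and Slc5a3, with means over 6 libraries of 1, 1.23 and 1.24 FPKM, and those just outside, which were not tested, were Slc28a2, Slc10a5 and Slc9a5, at 0.931, 0.913 and 0.905 FPKM. The nucleoside carrier Slc28a2 was at 0.156, 0.44 and 0.947 FPKM in NC, then at 1.23, 1.56 and 1.25 FPKM with the antagomiR.

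**Figure D4:**
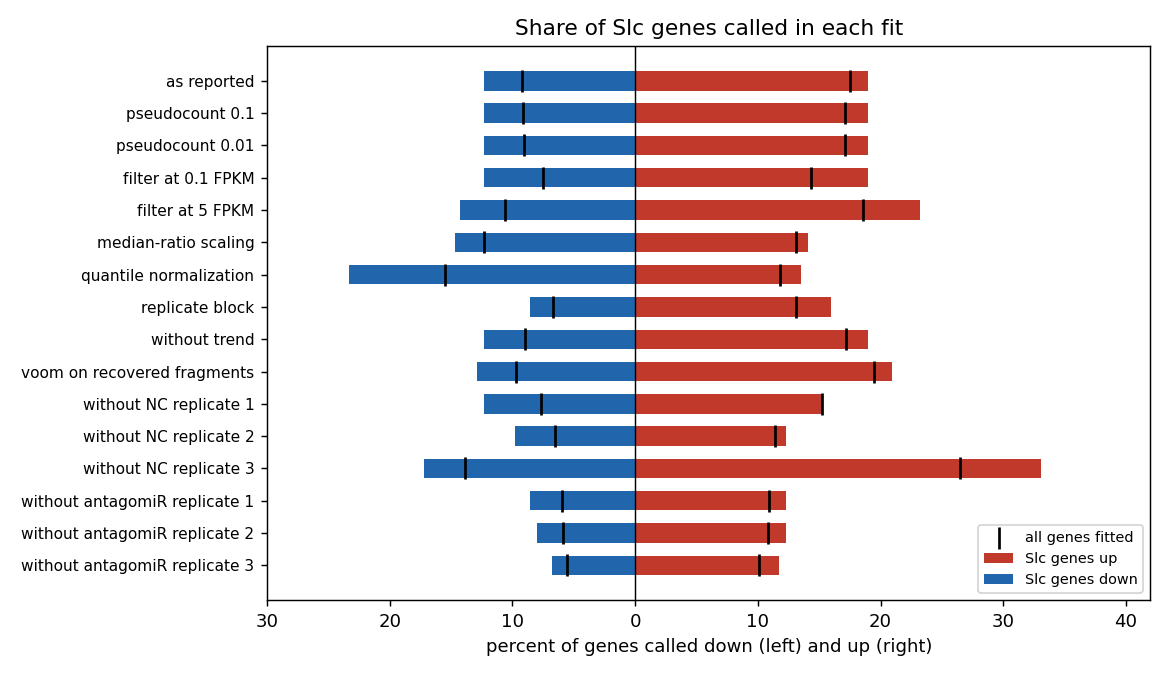
Percent of Slc genes called up (red, right of 0) and down (blue, left of 0) in the reported fit and in each of the 15 alternatives, with black marks for the percent of all genes fitted. The red bars run from 11.7% without antagomiR replicate 3 to 33.1% without NC replicate 3, and the black marks move with them, from 10.1% to 26.5%.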

How the data were processed

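The deposited table holds FPKM per gene for 6 libraries of paired 150 bp reads. Per the submitters' processing notes FastQC, cutadapt, HISAT2, HTSeq and edgeR were used with mRatBN7.2. No order, version, annotation or strand setting is given in the sources used here, so overlapping genes cannot be told apart. Columns were matched to groups by the labels' names, and 0 were left unassigned.

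Depth was read back from these values, since each is a whole number of fragments scaled by length and total. Genes under 400 bp gave the totals, and 20133 of 20134 genes above 0 had a length at which their 6 values came out whole (tolerance 0.01), covering at least 99.66% of each total. At these depths 3 fragments on 1 kb are 0.122 to 0.154 FPKM, a floor for counting error only.

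Genes that averaged 1 FPKM or more were tested with limma 3.58.1 in R 4.3.3 (lmFit, eBayes with a trend, on log2(FPKM + 1), two-sided, no replicate block), with Benjamini-Hochberg adjustment over all 12024. A fold change on this scale understates changes of low genes. The scripts were checked on simulated data. Alternatives were pseudocounts of 0.1 and 0.01, filters at 0.1 and 5 FPKM, scaling by median ratios or by quantiles, the replicate number as a block, no trend, voom on recovered fragments and leaving out each library.

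The genes and all lists were chosen with earlier results of these data known. The class of genes that are not carriers was added after the table's symbols were seen. Named genes were, per class, up to 4 called in each direction without overlap of the groups, by size, the 2 most abundant, those at the minimum, those left out and called members of the related lists. Slc41a1, Slc25a42, Slc25a33, Slc25a39, Slc25a17, Slc37a2, Slc43a2 and others named beside a relative are outside this rule, and their values were known when they were named. Promoter and miRNA sequences came from RefSeq (GRCr8), whose coordinates were not mixed with those of the table, and the first window listed for a symbol was used. The values of 1 gene that is in the counts are not reported here.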

Additional observations from a re-analysis of the deposited data

How the results depend on the processing

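Of the alternatives, those with another pseudocount, with a filter at 0.1 FPKM or without a trend each gave 31 risen and 20 fallen Slc genes. Without a trend 30 and 19 of these were the genes reported. Quantile normalization gave 38 fallen genes. Leaving out 1 library gave 1883 to 4862 called genes in the table, 19 to 54 risen Slc genes and 11 to 28 fallen ones, with the highest counts without NC replicate 3. Apart from those fits having fewer libraries, the cause was not tested. Each setting was also followed for the Slc genes named per class by call or by abundance. For these, 764 results stayed on their side of the threshold in the same direction. In 84 a call was lost, in 3 one was gained, in 9 the sign changed without a call in either fit, and 0 reversed. These numbers leave out the genes named outside that rule, the carriers left out by the selection and the related lists. Calls among those genes were lost or gained as well, as given above.

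With the replicate number as a block, 2380 genes were called, and 26 Slc genes rose and 14 fell. The call of Slc9a3r2 was among those lost with the block (adjusted p = 0.0526). The labels do not say that equal numbers mark a shared preparation, and deviations of equally numbered libraries correlated at -0.16, -0.06 and -0.04, against -0.06 to 0.13 for other pairs. Depth limits the low genes most, such as Slc46a3, with 48 to 56 fragments per library.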
